A study of Mus musculus with 8 samples.

Results

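The Zfp genes of the mouse encode zinc finger proteins, and the symbol names a protein domain rather than one function. A total of 88 genes, measured by 120 probes, had a platform symbol that begins with Zfp and a digit, out of 8653 named genes with 12131 probes. A probe was named by the annotation 11 positions before its value, an offset that the labels do not give and that was found in these data. With this offset, probes of the same gene correlated at a Spearman rho of 0.261 outside the family, against 0.0146 without it. These values come from the same data as the offset and are not an independent check of it. All 88 symbols were unchanged in the RefSeq gene table of assembly GRCm38.p6. Of the 120 probes, 119 had a value in every mouse and 109 a value on all 8 arrays.

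A zinc finger of the C2H2 kind is a short fold that holds a zinc ion between a pair of cysteines and a pair of histidines, and several in a row read DNA. Many members also carry a KRAB domain, which recruits the corepressor Trim28 and through it the histone methyltransferase Setdb1, and these members silence retroelements and imprinted genes. Others have no such domain: the Zfp36 proteins use another type of zinc finger to bind AU-rich messenger RNAs and start their decay, and the Zfp385 proteins have fingers that bind RNA.

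Brain RNA of 4 male ADAR-/-/GluR-BR/R mice aged 19 weeks was compared with a single wildtype pool, also male, 19 weeks old and from brain, by 2-colour hybridisation to cDNA arrays. These mice lack ADAR2, an adenosine deaminase that edits RNA and is encoded by Adarb1, and carry Gria2 alleles for the edited, arginine form of the AMPA receptor subunit GluR-B. Both changes are present in every mutant, so neither can be told apart from the other. Each mouse was hybridised once with its RNA in Cy5 and once in Cy3, which gave 8 arrays and 4 biological replicates. The pool held 4 mice according to the series' design and 6 according to the labelling protocol, and it counts as 1 control sample whose own spread was not measured. The labels name no strain. In bulk brain RNA, fewer cells of a type and less RNA per cell cannot be told apart.

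Of 20794 spots, 20211 to 20559 gave a usable log2 ratio on each array, with no spot intensities, so the number of arrays limits the precision. The labels do not say which channel is the numerator. Values are therefore given as 2 quantities after subtraction of each array's median. The mean ratio averages the 2 arrays of a mouse, and it compares mutant with pool if the authors turned all arrays one way. The swap component takes a mouse's Cy5 array minus its Cy3 array, by the dye of the mutant RNA, divided by 2, and it compares mutant with pool if Cy5 was divided by Cy3 throughout. If Cy5 was divided by Cy3 throughout, the contrast of mutant with pool cancels in the mean ratio, which then holds the dye effect. If all arrays were turned one way, that contrast cancels in the swap component instead. Under these readings either the mean ratio or the swap component holds the mutant contrast, not both, and the labels do not say which. Signs are those of the deposited values, and neither sign is a settled direction of mutant against wildtype. Adarb1, the disrupted gene, has 3 probes, of which 2 had swap components of -1.23 (adjusted p = 0.0383) and -1.33 (adjusted p = 0.0424) in limma, and the other one -0.099 (adjusted p = 0.628). Their mean ratios, in the same order, were 0.70 (adjusted p = 0.0297), 0.26 (adjusted p = 0.667) and 0.12 (adjusted p = 0.631), so the 2 quantities had opposite signs, and the probe that passed in both was positive in the mean ratio. The stretch of the transcript that each probe covers was not known here.

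On every array the Zfp probes were centred close to the array median. With the mutant in Cy5 their medians were 0.036, 0.029, -0.0065 and 0.069 in mice 1 to 4, against 0.034, 0.011, 0.0285 and 0.013 for all other named probes. With the mutant in Cy3 the medians were 0.18, 0.092, -0.138 and -0.125, against 0.235, 0.155, 0.096 and 0.075. The family's median thus lay below that of the other genes on all 4 arrays of the Cy3 orientation and on 1 of 4 arrays of the Cy5 orientation.

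The spread of the family was wider with the mutant in Cy3 in each of the 4 mice. Its interquartile range was 0.827, 0.756, 0.73 and 0.894 with the mutant in Cy5, and 1.28, 0.849, 1.12 and 1.1 with the mutant in Cy3. For the other named probes the same ranges were 0.742, 0.72, 0.953 and 0.944 in the Cy5 orientation and 1.87, 1.43, 1.33 and 1.27 in the Cy3 orientation. Zfp probes were therefore narrower than other genes on all 4 arrays with the mutant in Cy3, by a factor of 0.593 to 0.867, and on 2 of 4 with the mutant in Cy5. With each run of 48 consecutive spots centred on its median they were narrower on 3 of the 4 Cy3 arrays. The standard deviation, which weighs the tails more, gave a smaller distance in the Cy3 orientation (1.01 ± 0.208 for Zfp probes and 1.1 ± 0.125 for other probes; mean ± SD over 4 arrays). In the Cy5 orientation it was 0.755 ± 0.0837 for Zfp probes and 0.796 ± 0.0219 for other probes. These values describe probes of shared arrays, and no test was made of them.

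**Figure D1:**
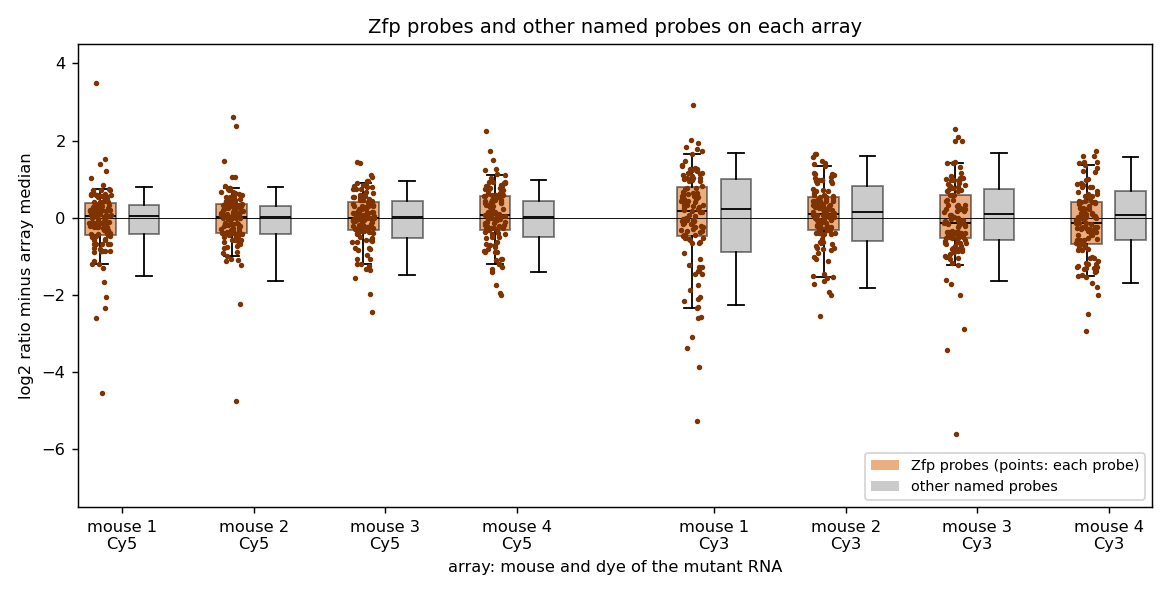
Log2 ratios after subtraction of the array median (vertical axis) for 120 Zfp probes (orange, with each probe as a point) and all other named probes (grey) on 8 arrays, grouped by the dye of the mutant RNA. Boxes show quartiles and whiskers the central 90% of probes; from the Cy5 to the Cy3 array the grey box widens more than the orange one in mice 1, 2 and 4, and about equally in mouse 3.

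Large ratios were counted on each array. Values above 1 were held by 4.24%, 4.24%, 3.33% and 6.84% of Zfp probes with the mutant in Cy5, against 2.58%, 2.92%, 4.23% and 4.39% of other probes. With the mutant in Cy3 the shares were 20.3%, 11.1%, 11.2% and 9.32% of Zfp probes, against 24.7%, 19.3%, 17.7% and 15.9% of other probes. The share was thus smaller in the family on all 4 Cy3 arrays and larger on 3 of 4 Cy5 arrays, with no test made of it. Values below -1 in the Cy3 orientation were held by 21, 12, 11 and 23 Zfp probes, or 9.48% to 19.5%, against 13.9% to 22.5% of other probes, and mouse 4 was the one array where the family had the larger share. The share of values that are ratios of small whole numbers, a trait of weak spots, was 3.39% to 11.2% for Zfp probes and 4.63% to 8.43% for other probes.

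Within the family, arrays of one orientation shared more of their pattern with the mutant in Cy3 (mean Pearson r = 0.423 across probes) than with the mutant in Cy5 (mean r = 0.316). For the other named probes these values were 0.533 and 0.299. The 2 arrays of a mouse correlated at 0.357 on average for Zfp probes and at 0.369 for other probes. These correlations are across probes of the same arrays, which share the pool RNA, and are descriptions.

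In the mean ratio, 23 of 119 Zfp probes of 22 genes passed the limma test at an adjusted p below 0.05, or 19.3%. Over all 20595 probes 30.4% passed. Of the 23, 16 were positive (13.4% of Zfp probes, against 17% of all probes) and 7 negative (5.88%, against 13.3%). With the deposited values, where no median was subtracted, 12 were positive and 12 negative. The family's median was -0.038, with quartiles of -0.42 and 0.25, while the other named probes had a median of -0.0019 and quartiles of -0.46 and 0.43. The count was 14, 8, 6 and 7 without mouse 1, 2, 3 and 4, where 19.0%, 12.3%, 12.03% and 15.6% of all probes passed. When only the 4 Cy5 arrays were fitted with limma it was 0, as it was over all probes, and 24 of 115 Zfp probes had an unadjusted p below 0.05. The matching count over all probes was not taken there. In the fit of all 8 arrays 40 of 119 Zfp probes had one, against 9228 of all 20595 probes.

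Zfp36, known as tristetraprolin, binds AU-rich elements in messenger RNA and leads them to decay. It stood at 1.02, 0.40, 1.05 and 0.84 in mice 1 to 4 with the mutant in Cy5, and at 1.27, 1.40, 1.41 and 1.19 with the mutant in Cy3. All 8 values were positive, and every Cy3 value lay above every Cy5 value. The mean ratio was 1.07 ± 0.135 (moderated SE, n = 4 mice; limma, adjusted p = 0.00924), and the swap component was -0.24 (adjusted p = 0.235). Its relative Zfp36l1 has 2 probes that did not pass, at 0.56 (adjusted p = 0.124) and -0.47 (adjusted p = 0.279).

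Zfp365, a protein of the nervous system that binds DISC1, had one probe at 0.57, 0.30, 0.46 and 0.089 with the mutant in Cy5 and at 1.94, 1.47, 2.08 and 1.29 with the mutant in Cy3. The 2 orientations did not overlap. Its mean ratio was 1.02 ± 0.162 (adjusted p = 0.0109) and its swap component -0.67 (adjusted p = 0.0383, limma). A second probe of the gene was measured on 5 arrays only, with a mean ratio of -0.32 ± 0.373 (adjusted p = 0.535).

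Zfp706, which in mouse embryonic stem cells promotes the exit from self-renewal, was the one gene of the family with 2 probes past the threshold. Probe 16052 stood at 0.15, -0.35, 0.10 and 0.10 with the mutant in Cy5 and at 1.72, 1.65, 1.43 and 1.42 with the mutant in Cy3. Probe 19272 stood at -0.027, 0.29, 0.40 and 0.47 with the mutant in Cy5 and at 1.77, 1.66, 1.98 and 1.46 with the mutant in Cy3. In both probes the Cy5 values lay near 0 and the Cy3 values above 1, with no overlap. Mean ratios were 0.779 ± 0.131 and 0.999 ± 0.133 (adjusted p = 0.0123 and 0.00931), and swap components were -0.78 and -0.72 (adjusted p = 0.0383 for each, limma). With runs of 48 spots centred the mean ratio of probe 16052 was 0.37 (adjusted p = 0.0995), which ends its call, and that of probe 19272 was 0.85 (adjusted p = 0.0173).

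Zfp385a is known in neurons for binding the messenger RNA of the inositol trisphosphate receptor. It stood at 0.57, 0.18, 0.56 and 0.83 with the mutant in Cy5 and at 1.24, 1.58, 1.15 and 0.42 with the mutant in Cy3. All 8 values were positive and the orientations overlapped, with a mean ratio of 0.81 ± 0.133 (adjusted p = 0.0115). Zfp385c was the one positive call whose values ran the other way between orientations. It stood at 1.53, 1.46, 1.45 and 2.24 with the mutant in Cy5 and at 0.82, 0.89, 0.47 and -0.38 with the mutant in Cy3. Every Cy5 value lay above every Cy3 value. Its mean ratio was 1.06 ± 0.133 (adjusted p = 0.00924) and its swap component 0.61 ± 0.198 (adjusted p = 0.103).

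The other positive calls with one sign on all 8 arrays were single probes of Zfp428 (1.01 ± 0.163), Zfp12 (0.83 ± 0.162) and Zfp24 (0.66 ± 0.146). The second probe of Zfp12 did not pass and had the opposite sign (-0.14, limma, adjusted p = 0.528). Zfp24, also known as Zfp191, is required in oligodendrocytes for myelination. Its call was lost with runs of 48 spots centred (0.26, adjusted p = 0.258) and with the deposited values (0.50, adjusted p = 0.0828), and that of Zfp12 without weak spots (0.58, adjusted p = 0.0639). Positive calls with mixed signs were Zfp641 (1.12), which had the largest mean ratio of the family, Zfp42 (0.85), Zfp410 (0.76), Zfp326 (0.73), Zfp106 (0.66), Zfp451 (0.65) and Zfp598 (0.62). Those of Zfp326, Zfp106 and Zfp451 were single probes of genes with further probes that did not pass. For Zfp451 these stood at 0.43 and -0.13 (limma, adjusted p = 0.0701 and 0.565). Zfp42, or Rex1, is a marker of pluripotent cells, Zfp410 activates the remodeller gene Chd4, and the human counterpart of Zfp598 marks collided ribosomes with ubiquitin. Of the 16 positive probes 15 were above 0 on all 4 arrays with the mutant in Cy3, and 7 on all 4 with the mutant in Cy5.

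Negative calls had one sign on all 8 arrays in 4 genes. Zfp689, a KRAB protein, had values of -0.41, -0.63, -0.27 and -2.01 with the mutant in Cy5 and of -3.09, -0.64, -0.73 and -1.69 with the mutant in Cy3, for a mean ratio of -1.19 ± 0.288 (adjusted p = 0.0309). The values of the 2 orientations overlapped, and mice 1 and 4 held the most negative ones. A second probe of Zfp689, with 5 values, was negative on each of the 5 arrays and was not tested, since mouse 4 had no value. Zfp536, which restrains neuronal differentiation, stood at -0.99 ± 0.248 (adjusted p = 0.034), and Zfp644, whose human counterpart is linked to high myopia, at -0.92 ± 0.176 (adjusted p = 0.0162). Zfp524 stood at -0.64 ± 0.167 (adjusted p = 0.0374). With runs of 48 spots centred these 3 calls were lost, at -0.30 (adjusted p = 0.271) for Zfp536, -0.50 (adjusted p = 0.061) for Zfp644 and 0.027 (adjusted p = 0.905) for Zfp524, while Zfp689 stood at -1.55 (adjusted p = 0.0229).

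The remaining negative calls were Zfp384 (-1.53) and single probes of Zfp27 (-1.24) and Zfp652 (-1.02). The other probe of Zfp27 did not pass (-0.18, limma, adjusted p = 0.384). Zfp384, a nuclear matrix protein that binds promoters of matrix metalloproteinases, rests on 5 values. It stood at -2.59, -2.24, -0.58 and -0.71 with the mutant in Cy5 and at -0.695 on the one array of the other orientation that measured it. In 3 of 4 mice its mean ratio is therefore a value of the Cy5 orientation alone.

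With runs of 48 spots centred 13 of the 23 calls were kept. Beside those given above, the lost ones were Zfp410 (0.30), Zfp106 (0.44), Zfp598 (0.54), Zfp384 (-1.22) and the probe of Zfp652 (-0.69). With the deposited values Zfp598, Zfp451 and Zfp326 also lost their calls, and with a common spread Zfp27, Zfp384, Zfp326 and Zfp641. Without weak spots Zfp598 and Zfp652 lost theirs. Zfp384 (2 weak values of 5) and the called probe of Zfp451 (3 of 8) could not be tested without weak spots.

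**Figure D2:**
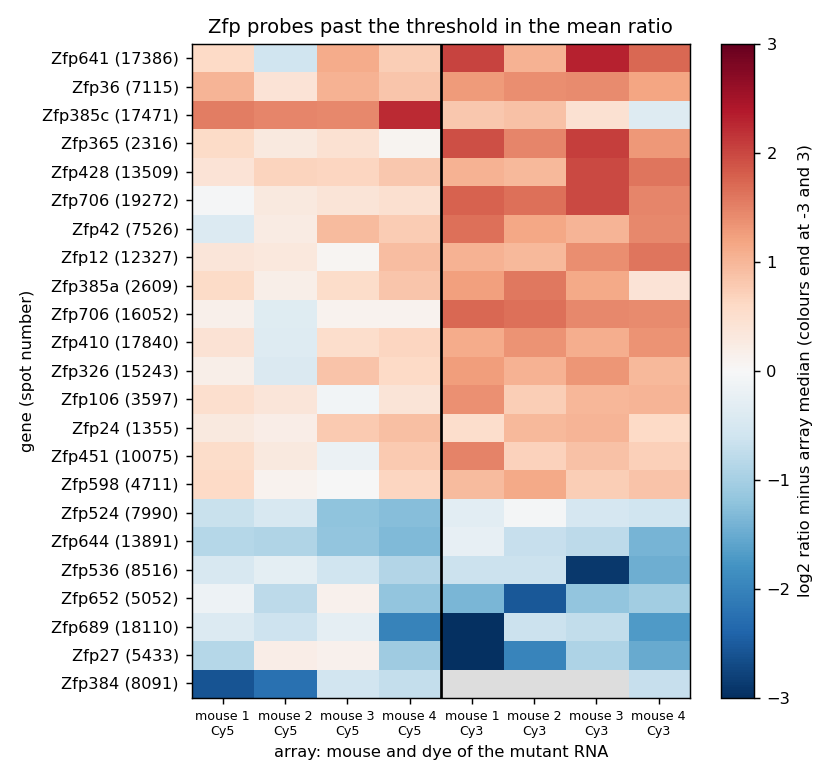
Log2 ratios after subtraction of the array median (colour) of the 23 Zfp probes past the threshold in the mean ratio, one row per probe with its spot number and one column per array, arrays with the mutant in Cy5 left of the line. Positive probes are paler on the Cy5 arrays, except Zfp385c; grey cells have no value.

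Promoters of the positive members Zfp36 and Zfp365 and of the negative member Zfp689 are shown to set the proximal sequence of the family's leading genes side by side. Each line gives the 250 bases before the annotated start, 5′ to 3′ on the gene's strand, from the RefSeq promoter table (GRCm38.p6), with matches to GGGCGG (the GC box), CCAAT and TATAAA in capitals on either strand. Zfp36 lies at chr7:28379229-28379478, Zfp365 at chr10:67912663-67912912 and Zfp689 at chr7:127449159-127449408, all on the minus strand.
Zfp36: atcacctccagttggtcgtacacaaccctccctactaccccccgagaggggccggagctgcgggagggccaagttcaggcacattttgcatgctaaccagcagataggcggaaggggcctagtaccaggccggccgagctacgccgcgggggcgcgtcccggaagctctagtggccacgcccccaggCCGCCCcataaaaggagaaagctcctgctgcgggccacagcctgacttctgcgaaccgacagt
Zfp365: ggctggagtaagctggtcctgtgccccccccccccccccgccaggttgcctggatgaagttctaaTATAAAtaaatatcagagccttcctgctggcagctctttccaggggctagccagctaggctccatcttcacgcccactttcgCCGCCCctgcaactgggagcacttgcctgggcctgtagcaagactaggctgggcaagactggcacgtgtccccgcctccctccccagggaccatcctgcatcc
Zfp689: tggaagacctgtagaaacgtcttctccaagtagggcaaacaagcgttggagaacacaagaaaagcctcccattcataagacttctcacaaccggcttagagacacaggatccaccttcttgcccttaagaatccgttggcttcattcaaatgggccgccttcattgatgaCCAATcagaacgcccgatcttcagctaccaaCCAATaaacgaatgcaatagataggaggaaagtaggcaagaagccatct
Zfp36 had 1 GC box match, Zfp365 had 1 GC box and 1 TATAAA match, and Zfp689 had 2 CCAAT matches. Among the 67 Zfp genes with an entry in that table, 50.7% held GGGCGG, 41.8% CCAAT and 8.96% TATAAA, against 56.6%, 36.4% and 7.27% of 6942 other named genes and 32.9%, 34.5% and 13.0% of all 27025 genes listed. Median GC content was 58.8% for Zfp genes and 59.2% for other named genes. A match is a description of letters, not a site that was tested.

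The swap component passed in 5 of 109 Zfp probes, or 4.59%, where 7.84% of all 18797 probes passed. Of the 5, 4 were negative (3.67%, against 6.43% of all probes) and 1 positive (0.917%, against 1.41%). The negative ones were the 2 probes of Zfp706, the probe of Zfp365 described above and Zfp641 (-0.66, adjusted p = 0.0385). The positive one was a probe of Zfp704, with values of -0.87, 1.07, 0.16 and 0.34 with the mutant in Cy5 and of -2.16, -1.72, -0.74 and -1.19 with the mutant in Cy3. Its swap component was 0.81 ± 0.179 (adjusted p = 0.0492), and those of the other 2 probes of Zfp704 were -0.15 and 0.045. The count was 0 with no median subtracted, without any one mouse, with arrays scaled to a common spread and with runs of 48 spots centred, and in each of these settings limma also called 0 of all probes. In these settings 15 to 23 Zfp probes had an unadjusted p below 0.05, and the matching count over all probes was not taken. In the main limma fit 24 of 109 Zfp probes had one, against 5771 of all 18797 probes. The median swap component was 0.021 for Zfp probes and -0.086 for other named probes.

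The signs of the 2 quantities, which come from the same arrays, were mostly opposite among the called probes. Of the 16 positive calls in the mean ratio 15 had a negative swap component, from -0.78 upward, and of the 6 negative calls with a swap component 4 had a positive one. Exceptions were Zfp385c, Zfp644 (-0.15) and Zfp524 (-0.27). By their definitions the 2 quantities have opposite signs wherever a probe's absolute mean is larger with the mutant in Cy3 than in Cy5. Of 109 Zfp probes with 8 values, 62.4% had such a larger mean, against 72.4% of other probes. Over all such probes, called or not, opposite signs are therefore not particular to the family. The share among the called probes of other genes was not counted. The median SD of a probe over 4 arrays was 0.392 in the Cy5 orientation and 0.545 in the Cy3 orientation for Zfp probes, and 0.395 and 0.48 for other probes. One sign on all 8 arrays was kept by 13 of the 109 (11.9%), against 21.8% of 10991 other probes. No Zfp probe that passed in the swap component kept opposite signs in the 2 orientations on all 8 arrays. Zfp1 kept them, at 0.59, 0.68, 0.42 and 0.30 with the mutant in Cy5 and at -0.028, -0.43, -0.37 and -1.32 with the mutant in Cy3, but its swap component of 0.52 missed the threshold (limma, adjusted p = 0.0634).

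**Figure D3:**
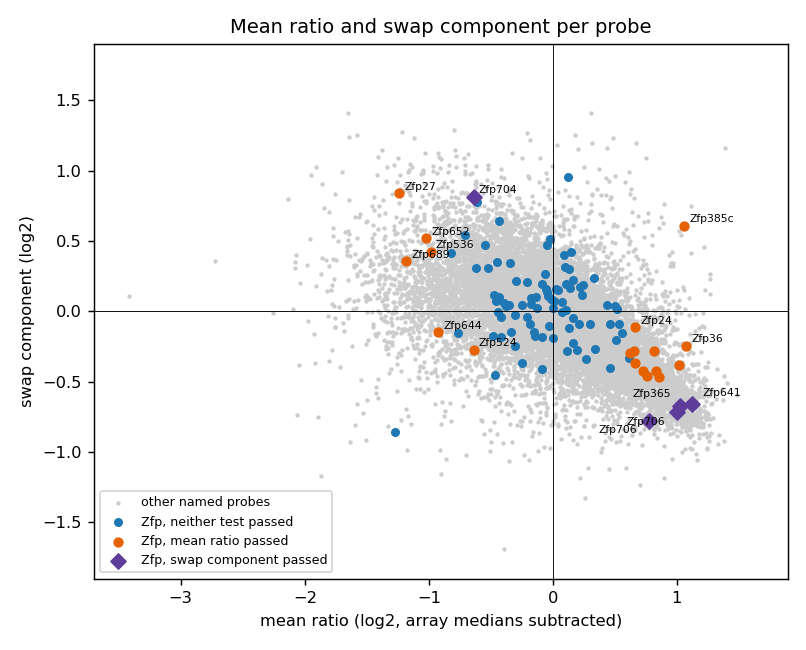
Mean ratio (horizontal axis, log2) against swap component (vertical axis, log2) for 109 Zfp probes with values on all 8 arrays (coloured) and the other named probes (grey). Most Zfp probes lie near the centre, 15 of 16 positive calls lie in the lower right, and Zfp385c stands apart at the upper right.

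Probes of one gene agreed weakly. Among 24 Zfp genes with at least 2 tested probes, 12 had the same sign in all their probes. Across the 39 pairs of probes of one gene the Spearman rho of the mean ratio was 0.136, against 0.261 across 4544 pairs of other genes. Signs matched in 21 of 39 Zfp pairs (53.8%) and in 58.9% of other pairs, and the median absolute difference was 0.467 in Zfp pairs and 0.479 in other pairs. For the swap component rho was 0.151 across 35 Zfp pairs and 0.278 across 3923 other pairs. With names at the same spot number it was 0.155 across 31 Zfp pairs and -0.0035 across 3840 other pairs. The Zfp agreement in the swap component was thus no higher than with names read without the offset. By orientation, rho was -0.00071 with the mutant in Cy5 and 0.177 with the mutant in Cy3 for Zfp pairs, against 0.0939 and 0.316 for other pairs. These are correlations across genes, which are not independent replicates, and genes with more than 2 probes enter with several pairs.

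Both probes passed in 1 of the 39 pairs, that of Zfp706, while 12 pairs had one probe past the threshold and 26 none. Among other genes both passed in 13.2% of pairs, and 79.1% of those 599 pairs had matching signs. The closest pairs were those of Zfp607b (0.10 and 0.12) and Zfp526 (-0.55 and -0.52), with no probe past the threshold. The means of Zfp607b were close while its values by array were not. Its probe 15267 ran from -1.92 to 2.38 over the arrays and its probe 11707 from -0.51 to 0.36.

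The widest distances were found in Zfp428 (1.01 and -0.37), Zfp652 (from 0.34 to -1.02 over 4 probes), Zfp365 (1.02 and -0.32) and Zfp106 (0.66, -0.044 and -0.45). In Zfp428 the second probe stood at 0.0020, 0.16, -0.80 and -0.70 with the mutant in Cy5 and at 0.50, -0.31, -0.80 and -1.03 with the mutant in Cy3, with both signs in each orientation. In Zfp652 1 probe of 4 passed. Its probe 2034 took its mean of -0.71 (adjusted p = 0.373) from 1 array, mouse 3 with the mutant in Cy3, at -5.60, while its other values lay between -0.42 and 0.48. Zfp proteins share similar finger sequences, and whether a cDNA probe also bound transcripts of relatives was not tested.

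**Figure D4:**
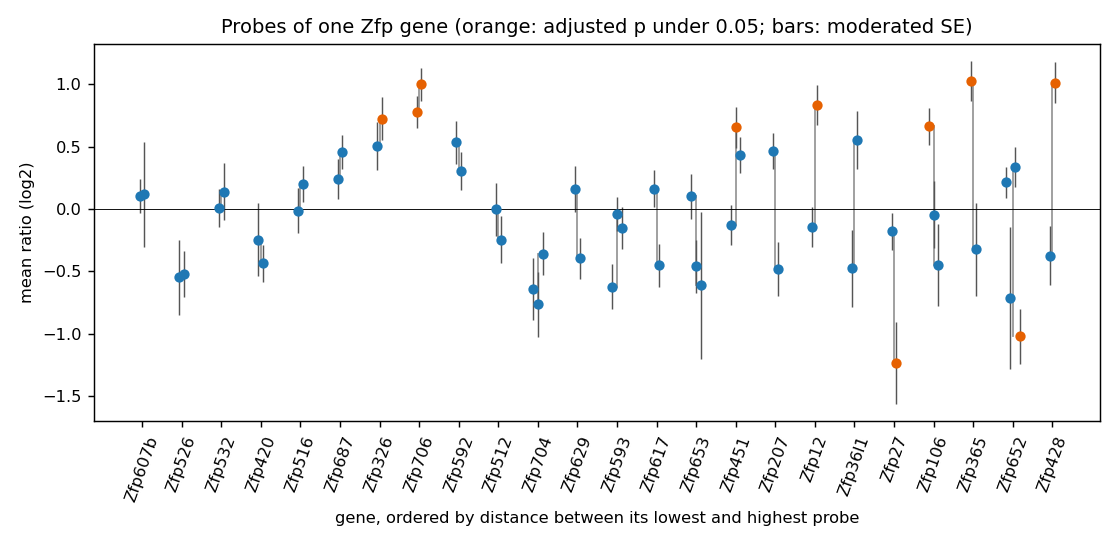
Mean ratio (log2, with the moderated SE over 4 mice as bars) of each tested probe of the 24 Zfp genes with 2 or more such probes, ordered by the distance between a gene's lowest and highest probe. Orange points passed at an adjusted p below 0.05; only Zfp706 has 2 of them, and Zfp428 has the widest distance.

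By role, calls were scattered over the family. Lists were written with earlier results of these data known. Their counts stand beside the 30.4% of all probes that passed, 17% as positive and 13.3% as negative calls. RNA-binding members had 3 positive calls among 8 probes, in Zfp385a, Zfp326 and Zfp106, with a median of 0.49. Zfp326 links RNA polymerase to splicing, and its 2 probes stood at 0.73 (adjusted p = 0.0278) and 0.51 (adjusted p = 0.0981). Zfp207, which helps chromosomes attach to the spindle, had probes at 0.46 and -0.48 that did not pass. Members with a role in neural development had 1 positive and 1 negative call among 5 probes, in Zfp365 and Zfp536. Of that list Zfp423, needed for the cerebellum, stood at -0.084 (adjusted p = 0.662) and Zfp462 at 0.22 (adjusted p = 0.333).

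The stem cell members were Zfp42, which passed, and Zfp296 at 0.15 (adjusted p = 0.6). Zfp516, a factor of brown fat, had probes at 0.20 and -0.013, neither past the threshold. No member of the list for imprinting and retroelement silencing was measured under these names.

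Position on the genome was uneven, as is known for this family, whose members arose by local duplication. Of the 88 genes 22 lie on chromosome 7 (25%), against 7.71% of the other named genes, and 9 lie on chromosome 8. The 29 tested probes on chromosome 7 had a median mean ratio of -0.20, with 2 positive and 4 negative calls, and the other 90 Zfp probes had a median of -0.0075, with 14 positive and 3 negative calls. Over all probes 17% were positive calls and 13.3% negative. Other named probes on chromosome 7 had a median of -0.042. A low Zfp median was not particular to chromosome 7: it was -0.24, -0.22, -0.20 and -0.18 on chromosomes 6, 3, 8 and 13. Elsewhere it ran up to 0.78, on chromosome 15. Chromosome 15 held 4 positive calls among 7 probes, 2 of them from Zfp706, beside the 17% of all probes. This was the highest count of positive calls on any chromosome with Zfp probes, and no test was made by chromosome.

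Genes that work with the family were also measured, and their calls stand beside 17% positive and 13.3% negative calls over all probes. Cofactors of KRAB proteins had 5 positive and 1 negative call among 15 probes of 9 genes, with a median of 0.37. Trim28, the corepressor itself, stood at -0.046 (adjusted p = 0.9), and probes of Cbx1, Cbx5 and Atf7ip did not pass, from -0.54 to 0.25. Among the calls Hdac2, a histone deacetylase, stood at 0.78 (adjusted p = 0.0307), Dnmt3a, a DNA methyltransferase, at 0.74 and 0.56 in the 2 of its 5 probes that passed, and Uhrf1, which guides DNA methylation, at -1.35 (adjusted p = 0.0211, limma). Genes of the mRNA decay machinery used by Zfp36 proteins had 2 positive calls, both of Pabpc1, and 2 negative ones, Cnot10 (-0.76) and 1 of 3 probes of the deadenylase Parn (-1.16), among 16 probes.

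Ratios give no level, so the presence of brain markers could not be checked, and their ratios are given instead. Counts of calls stand beside 17% positive and 13.3% negative calls over all probes. Neuron markers had 7 positive and 0 negative calls among 11 probes (median 0.77), astrocyte markers 7 and 0 of 12 (0.67), oligodendrocyte markers 5 and 0 of 7 (0.91). Blood markers had 5 positive and 3 negative calls among 10 probes, microglia and leukocyte markers 1 and 3 of 6, endothelial markers 1 and 1 of 2 and choroid plexus markers 1 and 1 of 4. All 5 positive blood calls were probes of Hba-a1, and the 3 negative ones were probes of S100a8, S100a9 and Alas2. The part of these markers in the Zfp values was not tested.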

How the data were processed

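Per the labels' protocols, cDNA of each mouse's total RNA was dye-labelled by an indirect method and mixed with pool cDNA in the second dye. The authors' deposited values are log2 ratios shifted by a constant on each array. The scale was read from the values, where many weak spots equal ratios of whole numbers up to 10 (within 0.001). For normalisation and numerator: not given in the sources used here. A code for an empty denominator (a ratio of 100000, 1 to 30 values per array) was treated as missing. The deposited medians were -0.15, -0.57, -0.034, -0.28, -0.0045, -0.13, -0.033 and -0.085 (mice 1 to 4, Cy5 then Cy3) and were subtracted.

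The mean of a mouse's 2 arrays, or of the one with a value, and the swap component were tested against 0 with limma 3.58.1 (R 4.3.3, lmFit, eBayes). The tests ran over all probes, Benjamini-Hochberg adjusted, threshold 0.05. A check on simulated data came before, with planted changes larger than any mean ratio of the family. It cannot vouch for calls of the size seen here. Moderated SEs borrow spread from all probes. Annotation past probe 20000 was not used. No protein sequences were used here. The members, lists and rules were chosen with earlier results of these data known. Named genes were, per sign, up to 8 with the largest mean ratio and up to 5 with the largest swap component past the threshold with a consistent sign, role list members, the closest and the farthest probe pairs, and Adarb1. No gene met the rule for the swap component. The other calls, with Zfp1, Zfp503, Zfp607b, Zfp526 and 1 probe of Zfp652, were named after their values were seen.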

Additional observations from a re-analysis of the deposited data

Results flagged for a closer look

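Among 81 sets of 4 values checked, 7 had 1 mouse farther from the others than Dixon's criterion allows, and chance gives about 1 in 20. In the mean ratio these were mouse 4 for a probe of Zfp106 (-1.03) and for Zfp12 (1.26), mouse 1 for a probe of Zfp704 (-1.52), and mouse 3 for a probe of Zfp207 (-1.19). In the swap component they were mouse 2 for Zfp36 (-0.50) and for Zfp410 (-0.86), and mouse 3 for Zfp12 (-0.68).

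The orientations differed past the threshold of the swap component, which tests that difference itself with limma, for Zfp365 (-0.67), the 2 probes of Zfp706 (-0.78 and -0.72), Zfp641 (-0.66) and 1 probe of Zfp704 (0.81). None of these values gives a direction of mutant against wildtype unless Cy5 was divided by Cy3 throughout.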

How the results depend on the processing

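The 23 calls in the mean ratio became 6 to 14 when 1 mouse was left out, 0 from Cy5 arrays alone and 39 with names read at the same spot number. The other alternatives, which were deposited values, the Cy3 orientation alone, a common spread, runs of 48 spots centred, complete probes, weak spots left out, the mouse as a random block and averaged probes of a gene, gave 18 to 29 calls. These are not always the same probes: of the 23, 13 were kept with runs of 48 spots centred, 19 with deposited values or a common spread and 18 of 21 without weak spots, while 6 to 12 were kept without 1 mouse. One called probe changed sign, Zfp524, at 0.027 with runs of 48 spots centred; the cause was not tested. Over all probes, 12.03% to 19.0% passed without 1 mouse, 0% from Cy5 arrays alone and 21.4% with runs centred. The share was 29.6% with deposited values, 34.3% from Cy3 arrays alone and 24.3% with a common spread. For complete probes it was 34.7%, without weak spots 29.7%, with the random block 39.4% and for averaged genes 29.1%. In the settings with 18 to 29 calls, 16.1% to 26.6% of Zfp members passed. With names at the same spot number 32.5% of Zfp probes passed, against 30.4% of all probes. The 5 calls in the swap component became 0 as deposited and 0 to 0 without 1 mouse. A common spread and runs of 48 spots centred also gave 0, and each count of 0 was also 0 over all probes. The count was 2 with averaged probes, 7 without weak spots and 5 with names at the same spot number. Names at the same spot number use the main fit, where 7.84% of all probes passed. The counts of 2 and 7 stand without a share over all probes. The rho of probe pairs moved to -0.021 with names at the same spot number and -0.00071 in the Cy5 orientation alone, and ranged from 0.035 to 0.183 when 1 mouse was left out, an alternative added after seeing the data. The ratio of the family's SD to that of other genes (0.93, mean over 8 arrays) lay at 0.858 to 0.968 with other measures of spread, weak spots left out or runs centred. The number of mice limits all tests, and no signal over background was used.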

Other observations

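Other C2H2 families were measured alongside the Zfp genes and are given as counts of probes past the threshold in the mean ratio, where 30.4% of all probes passed (17% positive and 13.3% negative). Genes whose symbol begins with Zbtb had 1 positive call, Zbtb7a (0.84), and 4 negative ones, Zbtb46 (-1.34), Zbtb41 (-1.14), Zbtb17 (-0.77) and Zbtb32 (-0.72), among 25 probes. Most encode proteins that join zinc fingers to a BTB domain, but the list, taken by symbol, also holds a probe of Zbtb8os (-0.027), which encodes neither. Second probes of Zbtb46 (-0.081) and Zbtb17 (-0.15) did not pass. The Klf genes had 2 positive and 1 negative call among 17 probes, with a median of 0.19: 1 of 2 probes of Klf9 (0.90) and the probe of Klf13 (0.84) were positive, and 1 of 4 probes of Klf3 was negative (-1.50).

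Zfp503, a factor of striatal development, had the lowest single value of the family in the Cy5 orientation. It stood at -4.54, -4.75, -0.17 and 0.93 with the mutant in Cy5 and at -1.45, -1.06, 0.23 and 0.61 with the mutant in Cy3, so that mice 1 and 2 lay below mice 3 and 4 on both dyes. Its mean ratio of -1.28 ± 0.724 missed the threshold (limma, adjusted p = 0.224). Of its 8 values 3 were ratios of small whole numbers, a trait of weak spots.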
